A study of Mus musculus with 6 samples.

Results

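Protein S (Pros1) and Gas6 are the ligands of the TAM receptors, the receptor tyrosine kinases Tyro3, Axl and Mertk. These 5 genes of 34245 in the expression table are described here, 2 ligands and 3 receptors. They were chosen by name as a ligand and receptor family, with the FPKM of Pros1 in these tumors already known, so their levels are given as a description with no test. RNA-seq was made from total RNA of 3 independent peripheral T-cell lymphomas (PTCL) that arose in lymph nodes of terminally sick Dnmt3b+/- mice. The mice were of the FVB/N strain, with 1 Dnmt3b allele inactivated in the germline. The labels give no age, and the tumors form 1 group with no control described here. Whole-genome bisulfite sequencing of Dnmt3b+/- and Dnmt3a-/- PTCL was not analysed here. The values are FPKM, the reads on a gene per kilobase of its exons and per 1000000 reads of the library, so levels of different genes can be set side by side.

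Protein S and Gas6 carry vitamin K-dependent Gla domains that bind phosphatidylserine, the lipid that dying cells and activated platelets expose. The ligands bridge this lipid to TAM receptors on phagocytes, which engulf dying cells and dampen innate immune signaling. Protein S also circulates as a cofactor of activated protein C in the control of clotting, and activated T-cells can make it.

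The libraries were scaled to depths of 30726570, 18969988 and 20770928 reads in tumors 1, 2 and 3, which were recovered from the value that genes without a read hold. The 11 T cell markers were all above 0.2 FPKM in every tumor, as were 36.7% of all genes. This share stands beside all later counts of listed genes above 0.2 FPKM. Beside later counts of genes without a read, 14190 of the 34245 genes had no read in any tumor. Cd3e, a chain of the T-cell receptor complex, had 56.4, 78.1 and 65.3 FPKM. Cd8a had 259, 122 and 218 FPKM, and Cd8b1, the most abundant gene of the list, had 435, 166 and 443. The T-cell label was thus borne out in every tumor, with all 3 expressing the genes of CD8 T-cells at high levels.

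The study measured DNA methylation, which in mammals lies mostly on CpG sites, and for this reason the bases before the genes' starts are described. All 5 members had a promoter in the RefSeq table for GRCm38.p6, and the 250 bases before the start were compared with 32841 promoters, whose median was 6 CpG sites. Tyro3 had 24, more than 88.0% of promoters, Pros1 15, more than 72.7%, Gas6 10, Mertk 7 and Axl 5. Tyro3 was thus the richest in CpG, but its window from 119799264 to 119799513 lies inside the gene as GENCODE draws it. The letters GGGCGG, a box that SP1 binds, occurred on either strand 5 times in Pros1, 4 in Gas6, 3 in Mertk, 3 in Tyro3 and 1 in Axl, and 32.7% of promoters hold them at least 1 time. TTCNNNGAA, the letters of STAT sites, which cannot overlap GGGCGG, occurred 1 time in Pros1 and in none of the other 4, beside 7.02% of promoters, and TGACTCA, of AP-1 sites, occurred in none, beside 4.46%. Matches are descriptions of the sequence and no evidence of binding. The promoters of both ligands, and of Axl with the fewest sites, are shown 5′ to 3′ on the strand of the gene with CpG in capitals. They lie at chr16:62854057-62854306 (plus), chr8:13494536-13494785 (minus) and chr7:25788734-25788983 (minus).
Pros1: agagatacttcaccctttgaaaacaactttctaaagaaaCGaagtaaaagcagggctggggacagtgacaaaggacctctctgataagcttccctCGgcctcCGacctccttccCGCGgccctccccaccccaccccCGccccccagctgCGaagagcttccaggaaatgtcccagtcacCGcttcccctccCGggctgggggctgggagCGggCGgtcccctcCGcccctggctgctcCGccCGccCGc
Gas6: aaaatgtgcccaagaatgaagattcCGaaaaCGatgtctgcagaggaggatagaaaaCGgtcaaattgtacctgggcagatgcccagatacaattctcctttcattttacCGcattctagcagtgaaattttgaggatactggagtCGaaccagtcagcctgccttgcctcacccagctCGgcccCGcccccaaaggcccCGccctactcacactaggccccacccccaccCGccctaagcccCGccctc
Axl: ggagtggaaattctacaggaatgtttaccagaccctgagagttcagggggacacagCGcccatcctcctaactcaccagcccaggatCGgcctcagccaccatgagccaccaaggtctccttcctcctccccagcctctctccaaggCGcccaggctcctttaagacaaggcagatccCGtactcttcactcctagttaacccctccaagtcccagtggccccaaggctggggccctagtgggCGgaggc

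**Figure D1:**
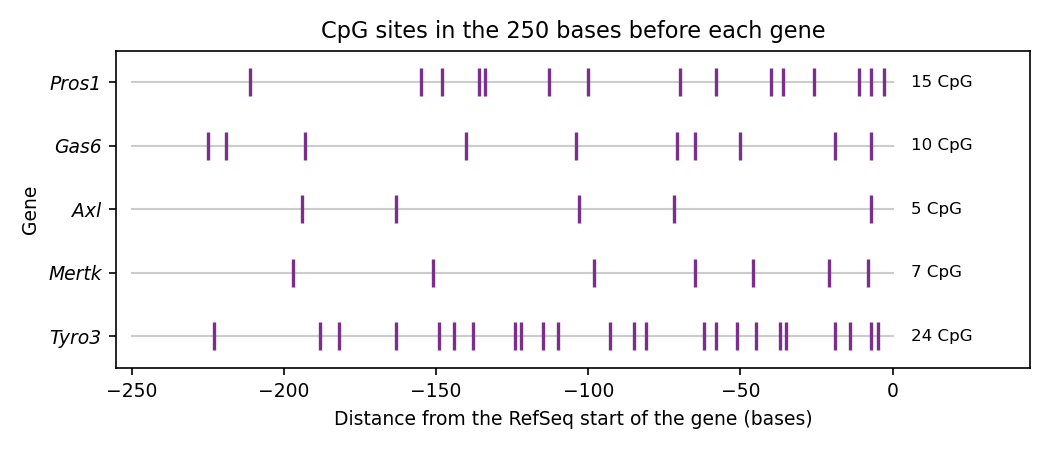
Position of each CpG site (vertical marks) in the 250 bases before the RefSeq start of the 5 genes, by distance from the start in bases. Pros1 and Tyro3 have 15 and 24 sites, and Axl has 5.

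Pros1 (ENSMUSG00000022912) lies on the plus strand of chromosome 16 of mm10 from 62854307 to 62929346, with 4088 exon bases in 16 blocks. Tumor 1 had 24.4 FPKM, tumor 2 had 0.735 and tumor 3 had 11.5, which stand for 3064, 57 and 980 reads. Tumors 1 and 3 were high, and tumor 2 was low. In tumor 1 Pros1 stood above 96.1% of all genes, in tumor 2 above 65.9% and in tumor 3 above 92.1%. Tumor 1 was 33.2-fold above tumor 2 (95% exact interval 25.5 to 43.9) and 2.11-fold above tumor 3 (1.97 to 2.27). Intervals here and below cover counting error only. The mean was 12.2 ± 11.8 FPKM (SD, n = 3), and it was 6.14 without tumor 1, so no single level describes the 3 tumors. In RNA of whole tumors, fewer cells of a type and less RNA per cell cannot be told apart.

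Gas6 (ENSMUSG00000031451), the ligand that binds all 3 receptors, lies on the minus strand of chromosome 8 from 13465374 to 13494490. Tumors 1 and 2 had 2.50 and 2.19 FPKM, or 196 and 106 reads. No read was found in tumor 3, where the floor of 3 reads used for folds is 0.0567 FPKM and the 95% interval of a count of 0 reaches 0.0697. Gas6 was thus present in tumors 1 and 2 and not detectable at this depth in tumor 3, where Pros1 was high. Tumors 1 and 2 differed by 1.14-fold, with an interval of 0.897 to 1.46 that includes equal levels. Set against the floor of 3 reads in tumor 3, tumor 1 was 44.2-fold higher and tumor 2 38.7-fold higher. These folds have no counting interval, and they would be smaller against the limit of 0.0697 FPKM. An exon of Tmem255b on the other strand shares 34 bases, or 1.33%, of the exons of Gas6, and whether the counting used strand was not given in the sources used here. Tmem255b was at or below 0.133 FPKM in every tumor.

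Axl (ENSMUSG00000002602) lies on the minus strand of chromosome 7 from 25757273 to 25788705. This receptor, which responds mainly to Gas6, stood at 7.87, 6.15 and 1.09 FPKM in tumors 1, 2 and 3, which stand for 1217, 587 and 114 reads. Tumors 1 and 2 were high and tumor 3 was low. Tumor 1 was 7.22-fold above tumor 3 (5.95 to 8.82) and 1.28-fold above tumor 2 (1.16 to 1.41). Axl was thus clearly detected in every tumor, unlike Gas6, its main ligand.

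Mertk (ENSMUSG00000014361), on the plus strand of chromosome 2 from 128698956 to 128802894, is the TAM receptor by which macrophages take up dying cells. Its FPKM was 2.67, 0.705 and 0.0666 in tumors 1, 2 and 3, from 356, 58 and 6 reads. Every pair of tumors was further apart than counting error. Tumor 1 was 3.79-fold above tumor 2 (2.86 to 5.09) and 40.1-fold above tumor 3, and the latter fold has a wide interval of 18.2 to 110.03 because it rests on 6 reads. The mean of 1.15 ± 1.36 FPKM (SD, n = 3) fell to 0.386 without tumor 1.

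Tyro3 (ENSMUSG00000027298), the TAM receptor that prefers protein S, lies on the same chromosome from 119797733 to 119818104, also on the plus strand. Its levels were 1.45, 3.04 and 2.24 FPKM in tumors 1, 2 and 3, or 277, 357 and 288 reads. Its highest tumor was tumor 2 and its lowest was tumor 1, an order that none of the other 4 genes had. Tumor 2 was 2.09-fold above tumor 1 (1.78 to 2.45). Tyro3 also varied least, with an SD of 35.3% of its mean, where Axl had 70.0%, Gas6 86.2%, Pros1 96.9% and Mertk 118%.

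**Figure D2:**
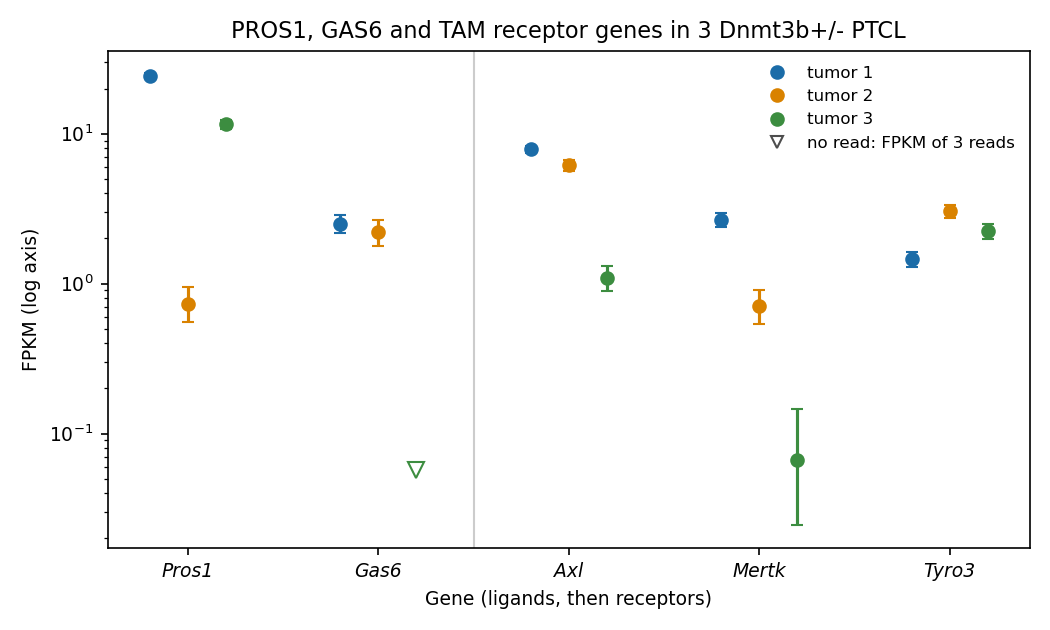
FPKM of the 5 genes on a log axis in each of 3 tumors, with bars for the 95% exact Poisson interval of the reads and an open triangle for the FPKM of 3 reads where no read was found. Pros1 is lowest in tumor 2, Gas6, Axl and Mertk are lowest in tumor 3, and Tyro3 is lowest in tumor 1.

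By mean FPKM the order was Pros1 with 12.2, Axl with 5.04, Tyro3 with 2.24, Gas6 with 1.57 and Mertk with 1.15. No step of this order exceeded its spread. The difference of Pros1 and Axl was 7.19 ± 11.3 FPKM (SD, n = 3), and that of Gas6 and Mertk was 0.423 ± 0.924. Each step but the last held in 2 of 3 tumors, and Gas6 was above Mertk in 1. Within the tumors the order differed. Pros1 led in tumors 1 and 3 and Axl led in tumor 2, where Pros1 had rank 4 of 5. Last place went to Tyro3 in tumor 1, to Mertk in tumor 2 and to Gas6 in tumor 3.

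Spread between tumors was measured as the share of a gene's FPKM, summed over the 3 tumors, that its highest tumor holds. An even gene would have an equal share in each tumor, and the median over the 11197 genes whose mean reached 1 FPKM was 42.2%. Mertk had 77.6% in tumor 1, Pros1 66.5%, Gas6 53.1% and Axl 52.1%, and Tyro3 had 45.1% in tumor 2. All 5 were thus above the median, and Tyro3 was nearest to it. A single tumor held about 2 times as much as the other 2 together, or more, for 1 of 5 (Mertk), beside 5.82% of the 11197 genes. Pros1, at 66.5%, lay just under that line, and it had 70.1% with FPKM rescaled to sum to 1000000 in each tumor. The highest tumor was at least 10 times the lowest for 3 of 5, Pros1, Gas6 and Mertk, beside 5.11% of genes. Tumor 1 was the highest for 4 of 5, beside 50.6%, and tumor 3 the lowest for 3 of 5, beside 37.4%. All but Gas6 and Mertk, or 3 of 5, were above 0.2 FPKM in every tumor, beside 36.7% of all genes. Since Pros1 was chosen with its values known, nothing is read from these counts.

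**Figure D3:**
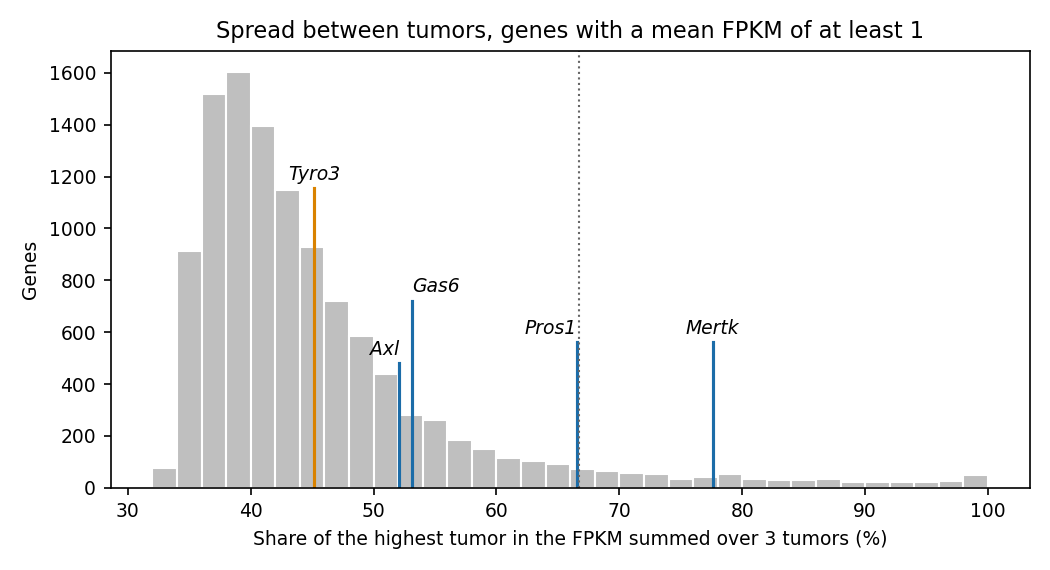
Number of genes whose mean reached 1 FPKM by the share of the highest tumor in the FPKM summed over 3 tumors, with the 5 genes as lines colored by that tumor (blue, tumor 1; orange, tumor 2) and a dotted line where the highest tumor holds about 2 times the other 2 together. Mertk and Pros1 lie in the upper tail, at 77.6% and 66.5%.

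Ratios of genes within a library do not depend on its scaling. The 3 receptors summed to 12.0, 9.89 and 3.39 FPKM in tumors 1, 2 and 3. Axl made up 65.6% and 62.2% of this sum in tumors 1 and 2, and Tyro3 made up 65.9% in tumor 3. The leading receptor thus differed between tumors, and Mertk never led, with 22.3%, 7.13% and 1.96% of the sum. Pros1 was 2.03 times the summed receptors in tumor 1, 0.0743 times in tumor 2 and 3.40 times in tumor 3. The mean of this ratio was 1.84 ± 1.67 (SD, n = 3), and it was 1.05 without tumor 3. Gas6 was 0.209 and 0.222 times the summed receptors in tumors 1 and 2, close to each other. In tumor 3 its floor of 3 reads was 0.0167 times the summed receptors. Between the ligands, Pros1 was 9.74 times Gas6 in tumor 1 and 0.335 times in tumor 2. In tumor 3 Pros1 was 204 times the floor of 3 reads set for Gas6, which had no read. Transcripts of both ligands were therefore present in tumors 1 and 2, with opposite order, and only that of Pros1 was detected in tumor 3.

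Because lymph nodes hold many cell types, the 5 genes were set beside lists of cell type markers. For each list the distance is that between the 3 shares of a gene and the 3 shares of the list's summed FPKM, where 0 means the same shares. The part that these cell types had in the results was not tested. Macrophage markers were highest in tumor 1 for 13 of 14 genes and lowest in tumor 3 for 13. Of the 12 whose mean reached 1 FPKM, 11 were highest in tumor 1, beside 50.6% of all such genes. All 12 were lowest in tumor 3, beside 37.4%. The gene not counted as lowest there, Vsig4, named after its values were seen, had 2 reads in tumor 1 and none in tumors 2 and 3. Cd68, a lysosomal macrophage gene also named after its values were seen, was the exception in tumor 1, with 19.6, 51.2 and 9.27 FPKM and its highest level in tumor 2. They summed to 558, 153 and 38.8 FPKM, and Lyz2, the lysozyme gene and the most abundant, had 215, 33.1 and 20.3. Neither defining marker was at 0. Adgre1, which encodes F4/80, had 5.38, 0.942 and 0.579 FPKM, and Csf1r, the receptor for macrophage colony-stimulating factor, had 20.7, 3.72 and 2.36.

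Of the 14 marker lists, the macrophage (0.0451), epithelial (0.0617) and erythroid (0.0684) lists were the 3 nearest to Mertk. Their order depends on single genes, as the macrophage distance was 0.0650 without Cd68 and 0.0876 without Marco, and the epithelial distance was 0.737 without Cdh1. Mertk divided by the complement gene C1qb, a macrophage product chosen here after its values were seen, was 0.0415, 0.0342 and 0.0418 in tumors 1, 2 and 3. Divided by its partners C1qa and C1qc, chosen in the same way, Mertk was less even, with 0.0359, 0.0293 and 0.0464 and with 0.0826, 0.0555 and 0.0891. The values in tumor 3 rest on 6 reads of Mertk. Ratios to the defining markers varied more. Mertk was 0.129, 0.189 and 0.0283 times Csf1r, and 0.497, 0.748 and 0.115 times Adgre1. In tumor 3, where Pros1 had 11.5 FPKM, C1qb was at 1.59 FPKM.

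Endothelial markers were lowest in tumor 3 for 10 of 10 genes and summed to 19.7, 16.0 and 5.27 FPKM. Only 2 of the 10 had a mean that reached 1 FPKM, and 37.4% of all such genes were lowest in tumor 3. The adhesion gene Pecam1, the most abundant, had 12.2, 10.9 and 4.86 FPKM, and Cdh5, the cadherin of vessel walls, had 0.805, 1.39 and 0.126. This list was nearest to Axl, at 0.0708 and at 0.112 without Lyve1. The distance of the endothelial list from Gas6 was 0.154, with 0.0949 when Pecam1 was left out and 0.179 when Lyve1 was. Fibroblast and reticular cell markers were also lowest in tumor 3 for 10 of 10 genes, 6 of them with a mean that reached 1 FPKM. These markers summed to 44.3, 62.5 and 2.66 FPKM. Their distance from Gas6 was 0.166, and leaving out 1 marker at a time moved it between 0.0841 and 0.270, so the order of these 2 lists beside Gas6 is not settled. Ccl21a, a chemokine of lymph node stroma and the most abundant, had 19.3, 14.1 and 2.21 FPKM. Col1a1, a collagen gene, had 1.63, 15.5 and 0.315, and Pdgfrb, a receptor of mural cells and fibroblasts, had 0.380, 1.59 and 0.00879, the last from 1 read. Stromal markers thus shared the low value of Gas6 in tumor 3, while the collagen gene, unlike Gas6, was much higher in tumor 2 than in tumor 1. Being lowest in tumor 3 was not particular to stroma. It held for 13 of 14 macrophage, 8 of 8 pancreatic acinar and 5 of 6 erythroid markers. Among T cell markers it held for 1 of 11, and among B cell markers for 0 of 8. Decorin (Dcn), a fibroblast product chosen after its values were seen, had 5.04 and 3.27 FPKM in tumors 1 and 2 and 1 read in tumor 3, and Gas6 was 0.497 and 0.671 times Dcn in tumors 1 and 2.

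Neutrophil markers were nearest to Pros1, at 0.0303 and at 0.0600 without S100a9. They summed to 39.6, 1.77 and 16.9 FPKM, but only 3 of 8 were above 0.2 FPKM in every tumor. S100a9, a calprotectin gene and the most abundant, had 22.6, 1.01 and 10.4 FPKM, and its partner S100a8 had 13.2, 0.228 and 4.30, the lowest of them from 3 reads. The defining marker Ly6g had 1 read in tumor 1 and none in tumors 2 and 3, so the list rested on few genes. RNA of hepatocytes, the main source of plasma protein S, was not detected. All 8 markers, with Alb, Apoa1 and Apoa2 among them, were without a read in every tumor, and the summed FPKM of 0.171, 0.276 and 0.252 is only what the 0.9 read held by such genes comes to. Platelet and megakaryocyte markers, from cells that store protein S, summed to 2.09, 3.46 and 1.08 FPKM, with 3 of 6 without a read. Of these, Gp1ba was the most abundant with 0.742, 1.18 and 0.726 FPKM, Itga2b had 0.913, 0.406 and 0.194, and Pf4 had 0.361 and 1.75 with no read in tumor 3.

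B cell markers were lowest in tumor 2, as Pros1 was, for 8 of 8 genes. How many of all genes were lowest there was not counted, so nothing is read from this number. The sum of the B cell markers was highest in tumor 3. They summed to 63.0, 15.1 and 113 FPKM, and Cd79a, the most abundant, had 23.1, 7.31 and 49.0. T cell markers summed to 1590, 1362 and 1701 FPKM, an even sum whose genes were less even. Cd4 had 28.4, 4.28 and 8.22 FPKM and Trbc1, a constant segment of the T-cell receptor, 98.2, 284 and 161, both named after their values were seen. Of the 11 T cell markers, 5 were lowest in tumor 2, as Pros1 was, a count with no share over all genes beside it. Cd8a was among them. Pros1 was 0.432, 0.00941 and 0.177 times Cd3e, and 0.0944, 0.00604 and 0.0529 times Cd8a. It thus also varied widely relative to these T-cell genes. These partners were chosen after their values were seen. Tyro3 was 0.0258, 0.0389 and 0.0343 times Cd3e, a narrow range for this partner. Cd8a was lowest in tumor 2, where Tyro3 was highest, so the range depends on the T-cell gene chosen. Leaving aside the hepatocyte list without reads, NK cell markers (0.196), T cell markers (0.205) and platelet and megakaryocyte markers (0.208) were nearest to Tyro3. The first 2 are distances to sums whose genes differ in their order of tumors. Without Gzma the NK distance was 0.108, and without Eomes it was 0.420. Leaving out 1 marker at a time moved the T cell distance between 0.159 and 0.243, so the order of these lists is not settled.

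Other lists moved in their own ways. Dendritic cell markers summed to 18.9, 10.5 and 10.7 FPKM, and of these the chemokine gene Ccl22 was the most abundant at 6.54, 1.90 and 5.78, with Flt3 at 1.34, 0.862 and 0.639 and Zbtb46 at 0.528, 0.638 and 0.266. NK cell markers summed to 84.4, 88.8 and 52.2 FPKM, led by Eomes, a gene of CD8 T-cells too, with 34.8 ± 13.1 (SD, n = 3) and its highest level in tumor 3, while Ncr1 was at 0.380, 0.205 and 0.125 and Klrb1c had 0.308, 5.77 and 3.38. The sum joined genes with different orders of tumors, as Gzma had 63.4, 10.6 and 3.59 FPKM and Klre1 had 0.242, 32.2 and 0.0551, both named after their values were seen. Erythroid markers had the highest share of any list in tumor 1, 82.4%, with sums of 202, 38.4 and 4.76 FPKM. Hba-a1 was the most abundant with 92.3, 19.6 and 1.90, and Hbb-bs had 35.3, 6.93 and 1.25. Globin RNA and Mertk thus shared their order of tumors. Adipocyte markers summed to 1.62, 20.2 and 0.188 FPKM. Cfd had 0.882 and 14.5 FPKM in tumors 1 and 2 and no read in tumor 3, Adipoq 0.0943 and 2.18 with no read in tumor 3, and Plin1 0.363 in tumor 2 with 1 read in tumor 1 and none in tumor 3. Pancreatic acinar markers summed to 87.0, 440.3 and 0.657 FPKM, with Ctrb1 at 33.9 and 198 and Cpa1 at 8.20 and 28.4 in tumors 1 and 2, both without a read in tumor 3, and Pnlip at 8.24, 25.9 and 0.0292. Fat and exocrine pancreas genes were therefore highest in tumor 2, the tumor with the least Pros1. Epithelial markers summed to 14.2, 2.80 and 0.958 FPKM, of which Cdh1 gave 13.7, 0.934 and 0.410, and Epcam had 0.415, 1.14 and 0.307.

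**Figure D4:**
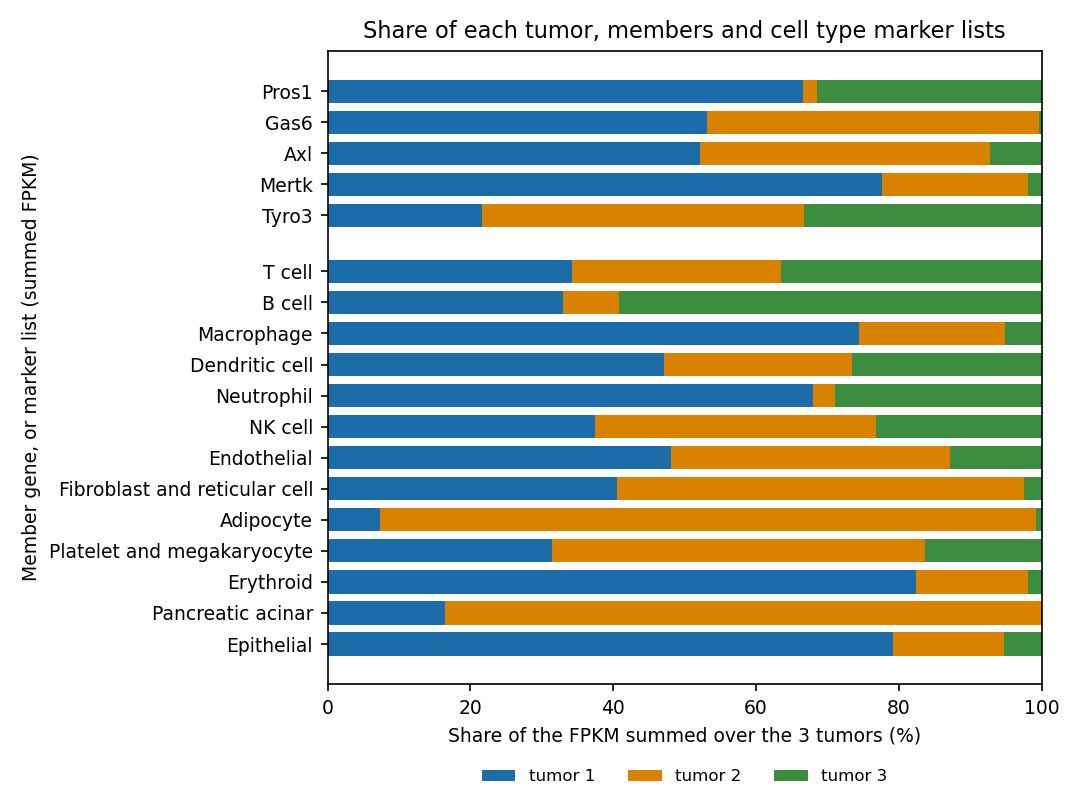
Share of each tumor in the FPKM summed over 3 tumors, for the 5 genes and for the summed FPKM of 13 marker lists, with the hepatocyte list without reads left out. Tumor 1 holds most of Mertk and of the macrophage list, tumor 2 holds little of Pros1 and of the neutrophil list, and tumor 3 holds 2.43% of the fibroblast list, while the share drawn for Gas6 there stands for no read.

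Among 58 receptor tyrosine kinases, 12 were above 0.2 FPKM in every tumor, beside 36.7% of all genes. Another 9 had no read in any tumor, beside 14190 of all 34245 genes. The family's median FPKM was 0.130, 0.207 and 0.0152 in tumors 1, 2 and 3, beside 0.0805, 0.0992 and 0.0783 over all genes. Axl had rank 3 of 58 by mean FPKM, after Csf1r with 8.93 ± 10.2 FPKM (SD, n = 3) and Lmtk2, a membrane-bound kinase, with 5.18 ± 0.812. It was followed by the collagen receptor Ddr1 with 4.30 ± 1.72. Tyro3 had rank 8 and Mertk rank 10, so the TAM receptors were all among the 10 highest. By tumor, Axl had rank 2 in tumors 1 and 2 and rank 8 in tumor 3. Mertk had ranks 5, 18 and 21 in tumors 1, 2 and 3, and Tyro3 had ranks 11, 8 and 6. Tyro3 thus stood above Mertk in tumors 2 and 3 and below it in tumor 1. Of the 12 kinases whose mean reached 1 FPKM, 8 were lowest in tumor 3, as Axl and Mertk were, beside the 37.4% of genes given above. The largest share of a single tumor was that of Lmtk3, with 89.8% in tumor 2, where it had 2.94 FPKM beside 0.266 and 0.0671 in tumors 1 and 3.

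**Figure D5:**
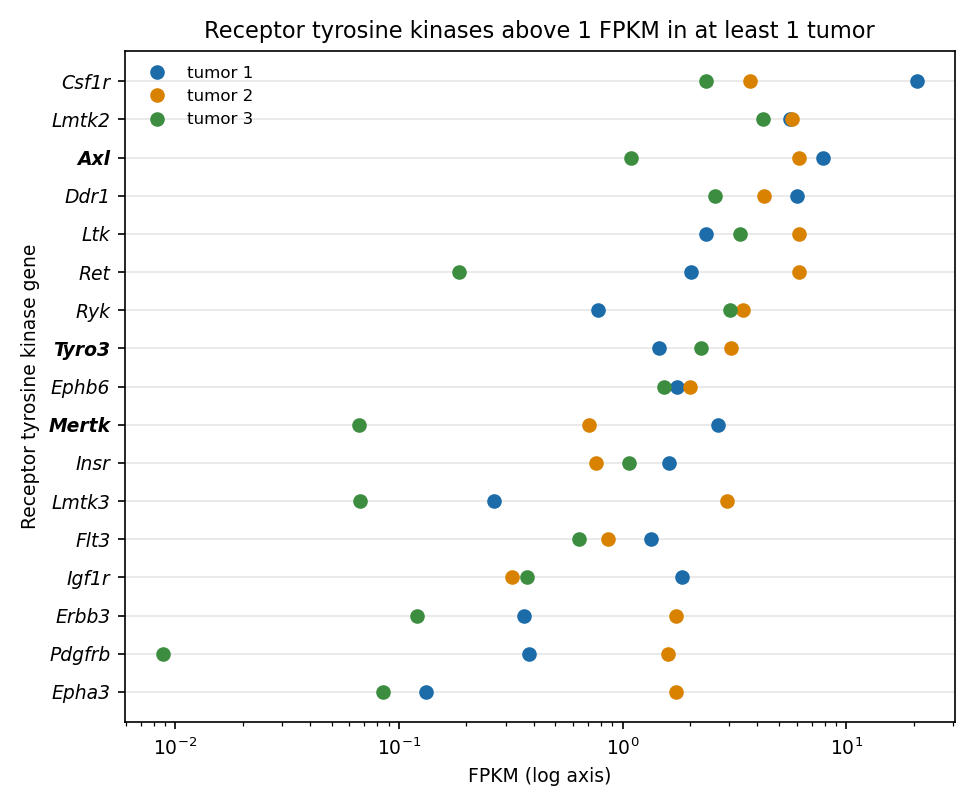
FPKM on a log axis of the receptor tyrosine kinases above 1 FPKM in at least 1 of 3 tumors, ordered by mean, with the TAM receptors in bold. Axl is near the top in tumors 1 and 2 and has rank 8 in tumor 3, while Tyro3 lies within 1.45 to 3.04 FPKM.

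Both ligands must be carboxylated on their Gla domains in a cycle that consumes vitamin K. Genes of the vitamin K cycle and of ligand maturation were above 0.2 FPKM in every tumor for 6 of 7, with medians of 4.92, 2.45 and 3.86 FPKM. Calu, which encodes a regulator of the carboxylase, had 16.8 ± 6.08 FPKM (SD, n = 3), and the propeptide protease gene Furin had 9.80 ± 3.71. The vitamin K reductases Vkorc1l1 and Vkorc1 had 4.41 ± 1.55 and 3.95 ± 1.32 FPKM. Among the genes of this list above 1 FPKM in at least 1 tumor, Aifm2, another vitamin K reductase, had the largest share in a single tumor, 52.5% in tumor 2. Of the 7, 3 were lowest in tumor 2, for which no share over all genes was counted, and 3 were lowest in tumor 3. Of the 5 whose mean reached 1 FPKM, 2 were lowest in tumor 3, beside 37.4% of all such genes. Nothing is read from these counts. The carboxylase gene Ggcx, named after its values were seen, had 2.24, 2.27 and 1.62 FPKM.

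Other Gla proteins had medians of 0.399, 0.0774 and 0.0533 FPKM, with 2 of 12 above 0.2 FPKM in every tumor, beside 36.7% of all genes. Of the 12, 3 had no read, beside 14190 of all 34245 genes. Mgp, an inhibitor of calcification, had 0.576 FPKM in tumor 1, 7.55 in tumor 2 and no read in tumor 3. The membrane Gla protein gene Prrg2 had 1.25 ± 0.403 FPKM (SD, n = 3) and Proz, for protein Z, had 1.05 ± 0.0786. F10, the factor X gene, had 2.25, 0.174 and 0.106 FPKM. Prrg4, named after its values were seen, lay at a distance of 0.0301 from Pros1 in shares of the 3 tumors, with 1.08, 0.0167 and 0.563 FPKM from 105, 1 and 37 reads. In the protein C pathway and among clotting cofactors, 3 of 10 genes were above 0.2 FPKM in every tumor and 2 had no read, among them Proc, the gene of protein C itself, and the medians were 0.233, 0.393 and 0.139 FPKM. The antithrombin gene Serpinc1 had 1.33 ± 0.214 FPKM (SD, n = 3), and Tfpi, an inhibitor for which protein S is a cofactor, had 1.75, 0.318 and 1.20. Procr, the protein C receptor, had 1.81, 0.960 and 0.379 FPKM, and Serpina5, the protein C inhibitor, had 0.0151, 0.536 and 0.779. Tfpi was thus lowest in tumor 2 as Pros1 was, with a smaller drop, and Procr was lowest in tumor 3.

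Phosphatidylserine exposure is what the ligands recognize. Of its 11 genes, 9 were above 0.2 FPKM in every tumor, and the medians were 6.59, 4.89 and 4.56 FPKM. Bsg, a partner of the scramblase Xkr8, was the most abundant with 79.2 ± 24.9 FPKM (SD, n = 3). The flippase genes Atp11b and Tmem30a had 33.5, 12.4 and 17.2 and 27.0, 14.2 and 18.7 FPKM, and the calcium-activated scramblase gene Ano6 had 9.52 ± 1.52. Xkr8, which caspases activate, had the largest share in a single tumor, with 1.15, 3.34 and 0.793 FPKM. The 4 most abundant of these genes stood above each TAM receptor in every tumor.

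Other receptors and bridging proteins for phosphatidylserine were above 0.2 FPKM in every tumor for 10 of 17, with medians of 0.888, 0.892 and 0.250 FPKM. Itgb3, an integrin chain that Mfge8 engages, had 15.2, 0.491 and 4.16 FPKM, high in tumors 1 and 3 as Pros1 was. Its partner chain Itgav had 3.24, 1.44 and 1.57. Mfge8, which bridges the lipid to this integrin, had 8.47, 8.83 and 1.08 FPKM, near each other in tumors 1 and 2 and lowest in tumor 3, as Gas6 and Axl were. Havcr2, the gene of TIM-3, had 5.17, 0.852 and 0.832. Of the 8 genes of this list whose mean reached 1 FPKM, 6 were lowest in tumor 3, beside 37.4% of all such genes. Of the engulfment genes and nuclear receptors, 8 of 12 were above 0.2 FPKM in every tumor, with medians of 4.83, 2.95 and 3.61 FPKM. Ucp2 had 58.3 ± 4.46 FPKM (SD, n = 3), Rac1 26.2 ± 13.6, the liver X receptor gene Nr1h2 21.8 ± 4.35 and Elmo2 7.14 ± 1.12. The other liver X receptor gene, Nr1h3, which acts in macrophages, had 4.06, 2.49 and 0.191 FPKM, the same order of tumors as Mertk.

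Downstream of TAM receptors, 11 of 13 signaling and feedback genes were above 0.2 FPKM in every tumor, with medians of 19.1, 25.9 and 14.0. The adaptor gene Grb2 had 37.3 ± 8.03 FPKM (SD, n = 3). The feedback genes Socs3 and Socs1 differed in pattern. Socs3 had 54.0 ± 43.2 FPKM (SD, n = 3) and was lowest in tumor 2 as Pros1 was, and Socs1 had 35.8 ± 20.2 and was lowest in tumor 3. The proteases that shed Axl and Mertk were expressed, with 4 of 5 genes of that list above 0.2 FPKM in every tumor and medians of 6.82, 3.40 and 4.10. Adam10 had 22.8 ± 4.79 FPKM (SD, n = 3), Adam17 9.33 ± 2.59, and the Adam17 regulators Rhbdf2 and Rhbdf1 had 4.77 ± 1.81 and 0.506 ± 0.0465. Of 3 other reported TAM ligands, 1 was above 0.2 FPKM in every tumor and the median was 0.0815, 0.245 and 0.0689 FPKM. Lgals3, for galectin-3, had 7.64, 18.6 and 2.51 FPKM and so exceeded Gas6 in every tumor, Tub had 0.132 ± 0.0983 (SD, n = 3), and Tulp1 had no read in any tumor.

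The genes most like each of the 5 were found by the distance between the shares of the 3 tumors, over 9892 genes whose mean reached 1 FPKM. With 3 tumors this likeness is a description. Nearest to Pros1 was Trbv2, a T-cell receptor segment, at a distance of 0.00477 with 6.28, 0.188 and 2.92 FPKM. It was followed by Cd226, an activating receptor of T and NK cells, at 0.00512 with 4.78, 0.134 and 2.23 FPKM, and by the kinase gene Camk2d at 0.00955. Within 0.05 of Pros1 lay 12 genes. For Gas6 the nearest were the homeobox gene Hoxa7 (0.0127), the complement gene C4b (0.0272) and Phf2os1 (0.0350), and 5 genes lay within 0.05. Axl was most like Timd4, a phosphatidylserine receptor gene of macrophages (0.0116), Plxnb2 (0.0206) and Ccl21a (0.0249), with 28 genes within 0.05. Mertk was most like Igfbp4 (0.0137), Clec4n, which encodes dectin-2 (0.0173), and the adhesion gene Vcam1 (0.0245), with 18 genes within 0.05. Tyro3 had the most neighbours. Tbc1d22a (0.00324), Slfn1 (0.00624) and Spryd3 (0.00766) were nearest, and 210 genes lay within 0.05. Between the members, Gas6 and Axl were closest at 0.0906, and Mertk and Tyro3 were farthest apart at 0.687.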

How the data were processed

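Total RNA of 3 Dnmt3b+/- PTCL was sequenced with paired-end reads of 150 bp. The authors trimmed the reads, aligned them to mm10 with STAR and deposited FPKM from SeqMonk, counting only alignments of mapping quality 50 or more, on a linear scale for 34245 genes. The 26 symbols turned into dates were restored with GENCODE M21, and a repeated symbol stands for its most abundant gene. Reads were recovered from FPKM and GENCODE exon lengths for 99.6% of genes, with a gene without a read at 0.9 read, and 92.0% of these genes gave whole reads in every tumor, to within 0.01 read. Reads of genes that did not are not given. Intervals are exact Poisson for levels and exact Clopper-Pearson for folds. For folds and ratios of the members a count of 0 was set at a floor of 3 reads, and means, SDs, shares and sums hold the deposited value of 0.9 read. With 1 group of 3 tumors no test was made.

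The members and the lists, 10 of pathways or families and 14 of cell type markers, were chosen with earlier results of these data known. Named genes were the 5 members, the 3 genes nearest to each in shares of summed FPKM (mean of 1 FPKM or more, without the members and without symbols that start with Gm and a digit or end with Rik), in each pathway or family list the 4 with the highest mean and the 1 with the largest share in 1 tumor among those above 1 FPKM in at least 1 tumor, and in each marker list its defining markers and most abundant gene. Some genes that this rule names are not reported here. Alternatives were other scalings, pseudocounts, thresholds and filters, each tumor left out, and each marker of a list left out, the last chosen after seeing the data. The steps were tested on simulated data. WGBS of 3 tumors and RNA-seq of other groups were not analysed here. Tables were handled with pandas 2.3.3 and NumPy 2.4.6 in Python 3.11, intervals came from SciPy 1.17.1, and matplotlib 3.10.9 drew the figures.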

Additional observations from a re-analysis of the deposited data

How the results depend on the processing

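Each of the 5 genes kept its highest tumor under every scaling tried, and the number lowest in tumor 3 was 3 of 5 in each. Macrophage (13 of 14), endothelial (10 of 10) and fibroblast (10 of 10) markers were lowest in tumor 3 and B cell markers (8 of 8) in tumor 2 under each as well. With FPKM rescaled to sum to 1000000, which multiplies all values, the means were 61.5 for Pros1, 7.98 for Gas6, 25.4 for Axl, 5.95 for Mertk and 10.8 for Tyro3. Median-of-ratios factors moved all genes by -0.12, 0.04 and 0.07 log2 in tumors 1, 2 and 3 and no mean by more than its SD. Without 1 tumor, means ranged from 6.14 to 18.0 for Pros1, 1.10 to 2.35 for Gas6, 3.62 to 7.01 for Axl, 0.386 to 1.69 for Mertk and 1.85 to 2.64 for Tyro3, and Pros1 over the summed receptors from 1.05 to 2.72, and Gas6 over them from 0.113 to 0.215, with tumor 3 set at its floor of 3 reads.

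The share of the highest tumor left its counting interval for Pros1 (70.1% with the sum of 1000000, 63.6% with median-of-ratios factors, 73.3% per summed Cd3e, Cd3d and Cd3g), Axl (54.7%, 49.3% and 58.7%) and Gas6 (59.5% per summed Cd3 genes). The scaling to Cd3 genes was chosen after seeing the data. By construction, scalings multiply the tumors by different factors. Genes with about 2 times the other tumors together in 1 tumor were 9.79% of those whose mean reached 0.2 FPKM, and 20.6% of those reaching 1 FPKM held over 50% in 1 tumor. Above 1 FPKM in every tumor were 72 listed genes, against 117 above 0.2. Pseudocounts lowered the log2 of highest over lowest tumor, for Mertk from 5.33 to 4.06 with 0.1 FPKM and 1.78 with 1 FPKM. When only genes whose mean reached 5 FPKM were compared, 0 of the 3 genes most like Pros1 were kept, all with means under 5 FPKM, 1 of 3 for Gas6, Axl and Mertk, and 3 of 3 for Tyro3. These shifts follow from the pseudocounts, thresholds and filters themselves. Distances to marker lists with 1 marker left out were also chosen after seeing the data.

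In tumor 3 Gas6 and Mertk rest on 0 and 6 reads, which limits how exactly their levels there are known. The depth of tumor 3, 20770928 reads, was above the 18969988 of tumor 2. Summed markers of several cell types differ between the tumors, and 3 tumors give no measure of how common each pattern is. No paired analysis was possible because there is a single group and no result comes from a test.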
